A study of Mus musculus with 4 samples.

Results

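The circadian clock genes described here are 10 genes, Nr1d1, Nr1d2, Clock, Per1, Per2, Per3, Cry1, Cry2, Dbp and Bhlhe40, chosen by symbol as core parts and direct outputs of the clock. Each was named alone by the platform annotation of exactly 1 probe set, a group of short array probes summarised to 1 value, so all 10 were measured, out of 19938 named genes. The samples were 4 arrays of total RNA from CCR6+ group 3 innate lymphoid cells (ILC3), lymphocytes without rearranged antigen receptors, sorted out of mesenteric lymph nodes taken from naive mice of the C57BL/6 strain. They carry no transgene or treatment in the labels, form 1 group numbered 1 to 4, and were gated as CD127+, CD90.2+, CCR6+ and ST2-. The labels give no age, no hour of collection and no word on whether the samples came from separate animals or pools, so the spread between them may be technical. With 1 group there is no contrast between conditions, and each gene was set against background and followed over the arrays.

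The circadian clock is a transcriptional feedback loop that runs in most cells with a period of about a day. CLOCK and its partner BMAL1, encoded by Arntl, bind E-box elements and switch on the Per and Cry genes, whose proteins return to block CLOCK and BMAL1. The nuclear receptors REV-ERBα and REV-ERBβ, encoded by Nr1d1 and Nr1d2, are also switched on by CLOCK and BMAL1 and close a further loop by repressing Arntl, against activation by ROR receptors. DBP carries the rhythm to D-box elements of output genes, and BHLHE40 competes at E-boxes. ILC3 are known to depend on this loop, with REV-ERBα and BMAL1 described as regulators of their number and cytokine output in the gut.

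The letters of elements known from clock control can be sought in the promoters of these genes, which does not show that a match is used. RefSeq windows on build GRCm38.p6, from 250 bases before to 50 after the annotated start, were at hand for 8 of the 10 genes, and each was searched on both strands. The letters searched were CACGTG for the E-box, CACGTT for the related E′-box, TAGGTCA and TGGGTCA for the ROR element, TTATGTA and TTACGTA for the D-box, and TGACGTC for the cAMP response element. None of the matches shown overlaps another. The stretches that held a match are shown 5′ to 3′ on the strand of the gene, up to the base before the start at most, with the match in capitals. Capitals reading AACGTG are an E′-box on the opposite strand.
Per1, E-box, chr11:69098748-69098823, plus strand: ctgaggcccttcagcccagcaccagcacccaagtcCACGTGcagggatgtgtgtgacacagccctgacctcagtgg
Per1, another start, cAMP element, chr11:69099985-69100061, plus strand: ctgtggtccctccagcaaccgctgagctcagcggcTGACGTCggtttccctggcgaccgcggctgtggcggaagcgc
Cry1, E′-box and E-box, chr10:85185074-85185168, minus strand: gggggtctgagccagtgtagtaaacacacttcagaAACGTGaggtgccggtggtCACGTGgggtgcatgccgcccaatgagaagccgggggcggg
Cry2, E′-box, chr2:92434195-92434270, minus strand: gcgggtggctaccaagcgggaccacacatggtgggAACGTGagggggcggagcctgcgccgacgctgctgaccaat
Nr1d1, E′-box, chr11:98775378-98775440, minus strand: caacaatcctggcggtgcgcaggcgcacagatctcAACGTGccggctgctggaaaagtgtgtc
Per3, D-boxes, chr4:151044782-151044905, minus strand: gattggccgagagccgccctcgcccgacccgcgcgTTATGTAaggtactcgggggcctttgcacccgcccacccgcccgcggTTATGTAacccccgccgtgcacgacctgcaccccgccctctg

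The E-box stood in 2 of the 8 genes, Per1 at 166 and Cry1 at 60 bases before the start, against 8.09% of the 27025 genes with a window. The E′-box stood in 3 of the 8, Cry1, Cry2 and Nr1d1, against 5.44% of genes. Per3 held a D-box core at 205 and another at 158 bases before its start, and 3.56% of genes held any. The cAMP element core of Per1 lay 132 bases before its other start, and 3.60% of genes held that core. The ROR element core was in 0 of the 8 genes and in 7.35% of all genes. Of the 26 genes of the wider pathway with a window, 3 held the E-box, and 2 held each of the E′-box, the ROR element core, the D-box core and the cAMP element core. Windows of Clock, Dbp and Nr1d2 held none of these letters, which says only that they are not in these windows. A match is a description of the letters, and no binding was measured.

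All 10 clock genes were above background in the RNA of these sorted samples. Values are log2 levels after RMA (robust multi-array average), so a step of 1 is a doubling, and means are given ± SD over the 4 arrays. Background was formed by 1241 sensory receptor genes, those for odorants, pheromones, trace amines and bitter tastes. A gene was called above background when the share of these genes at or above its mean, adjusted over all named genes by Benjamini-Hochberg, was under 0.05. By this rule 46.2% of all named genes were called, and limma's test against the 95th percentile of background also called all 10, beside 54% of all genes. As a stricter reading, 7 of the 10 lay on every array above all 13 measured genes of other organs, the highest of which reached 7.42, and 24.1% of all genes did so. The other 3, Per2, Per3 and Cry2, were called inside the range that these genes of other organs also reach, 4 of which were themselves called. Probe sets bind with different strength, so levels are not compared between genes as amounts of RNA.

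**Figure D1:**
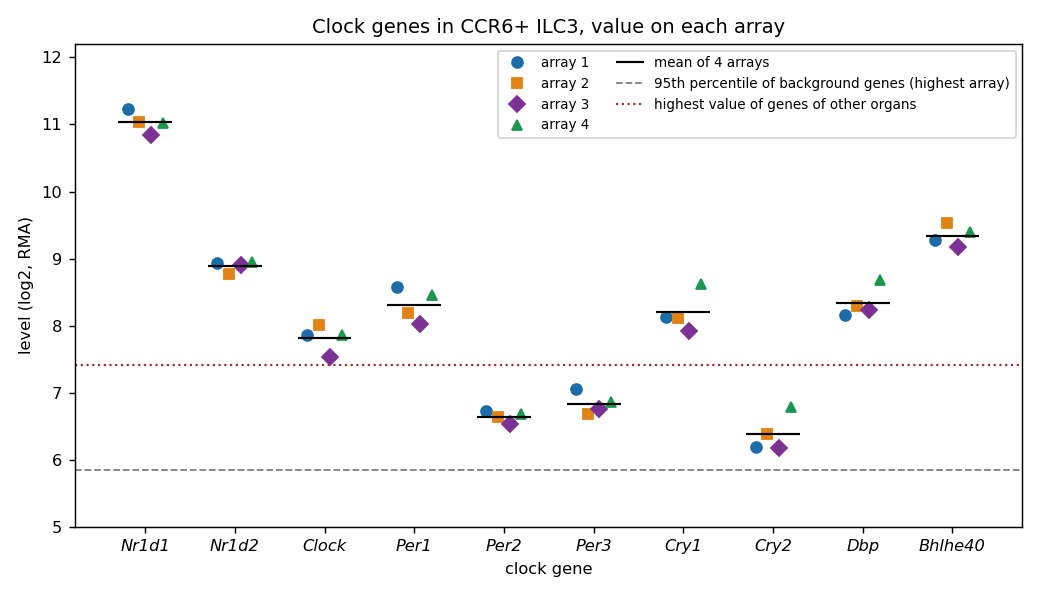
Level of each of the 10 clock genes (x axis) on each of the 4 arrays (y axis, log2 RMA level), with the mean as a bar, the 95th percentile of background genes on the array where it was highest (dashed) and the highest value of genes of other organs (dotted, 7.42). Nr1d1, at 10.84 to 11.23, lies above both lines on every array, while Per2, Per3 and Cry2 lie between them.

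The REV-ERB genes, the repressors of the loop that controls Arntl, were both clear of background. Nr1d1 (probe set 10390691) was at 11.23, 11.03, 10.84 and 11.02 on arrays 1 to 4, a mean of 11.03 ± 0.16. It was highest on array 1 and lowest on array 3, a 1.32-fold span. Of the 1241 background genes 0 reached its mean, and its adjusted detection p was 0.0108. Nr1d2 (probe set 10417734), its paralogue, was at 8.93, 8.77, 8.91 and 8.95, a mean of 8.89 ± 0.08. Its arrays lay within 1.13-fold of each other, with array 2 the lowest, and 2 background genes reached its mean, for an adjusted detection p of 0.0142. The difference between Nr1d1 and Nr1d2 within an array moved by 1.30-fold over the arrays, from 1.93 on array 3 to 2.31 on array 1.

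The activators came next. Clock (probe set 10530733), which encodes the DNA-binding partner of BMAL1, was at 7.86, 8.01, 7.53 and 7.86 on arrays 1 to 4, a mean of 7.81 ± 0.20. Arrays 1 and 4 had the same value, array 2 the highest and array 3 the lowest, with a 1.39-fold span and an adjusted detection p of 0.0142. Arntl was at 8.26, 8.30, 8.002 and 8.01, a mean of 8.14 ± 0.16, and was called with the same adjusted p of 0.0142. It was higher on arrays 1 and 2 than on arrays 3 and 4. Arntl2, a relative of Arntl, was at 5.05 ± 0.11 and not called, with an adjusted detection p of 0.231.

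Of the Period genes, which encode the PER part of the repressor complex, Per1 alone was higher on every array than each gene of other organs. Per1 (probe set 10377439), which is also an early response gene to cAMP signals and glucocorticoids, was at 8.58, 8.19, 8.02 and 8.46, a mean of 8.31 ± 0.25. It was higher on arrays 1 and 4 than on arrays 2 and 3, a 1.47-fold span, and its adjusted detection p was 0.0142. Per2 (probe set 10356601) was at 6.73, 6.63, 6.53 and 6.68, a mean of 6.64 ± 0.08. All arrays of Per2 lay within 1.15-fold, and 16 background genes reached its mean, for an adjusted detection p of 0.0332. Per3 (probe set 10518781) was at 7.05, 6.68, 6.75 and 6.86, a mean of 6.84 ± 0.16. Array 1 was its highest, 13 background genes reached its mean, and the adjusted detection p was 0.0293. All 3 Period genes were highest on array 1, as were 4 of the 10 clock genes, against 26.4% of genes above background. The same array held the highest value of 8 of the 11 immediate-early and heat shock genes measured, whose part in the Period values was not tested.

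The cryptochromes, the CRY part of the repressor complex, shared their highest and lowest arrays. Cry1 (probe set 10371400) was at 8.13, 8.12, 7.92 and 8.62, a mean of 8.20 ± 0.30 with an adjusted detection p of 0.0142. Cry2 (probe set 10485170) was at 6.19, 6.39, 6.18 and 6.78, a mean of 6.39 ± 0.28. Both were lowest on array 3 and highest on array 4, with spans of 1.63-fold and 1.51-fold, and the difference between them moved by 1.16-fold over the arrays. Cry2 lay next to the threshold, as 27 background genes reached its mean and its adjusted detection p was 0.0488. It was not called without array 3 or without array 4, with adjusted p of 0.0514 and 0.0561, nor with olfactory receptors alone as background, at 0.0590. Over the other settings of the same test its adjusted p lay between 0.0439 and 0.0489, save 1. That was 0.0260 with only genes above the median of all probe sets tested. This filter uses the same mean as the test, so a lower adjusted p follows from the filter itself.

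The output factor and the E-box competitor were both clear of background. Dbp (probe set 10553092) was at 8.16, 8.29, 8.23 and 8.68, a mean of 8.34 ± 0.23 with an adjusted detection p of 0.0142. Arrays 1 to 3 lay close together and array 4 stood above them, with a span of 1.43-fold. Bhlhe40 (probe set 10540472), which encodes DEC1 and also answers to activation of lymphocytes, was at 9.28, 9.52, 9.18 and 9.39, a mean of 9.34 ± 0.15. Array 2 was its highest and array 3 its lowest, 0 background genes reached its mean, and its adjusted detection p was 0.0108.

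Across the arrays, the clock genes lay mostly low on array 3 and high on array 4. On array 3, 9 of the 10 were below their own mean, with Nr1d2 the exception, while 51.8% of all genes above background were. On array 4, 9 of the 10 were above their own mean, with Nr1d1 just below, against 46.6% of genes above background. The median deviation of the 10 was 0.04, -0.03, -0.18 and 0.05 on arrays 1 to 4, and that of all genes above background was 0.01, 0.01, -0.01 and -0.01. Array 3 held the lowest value of 7 of the 10, against 27.3% of genes above background, and array 4 held the highest value of 4, against 22.6%. These counts were read after the values were seen, the genes are not independent of each other, and with 1 sample behind each array no test of an array was made.

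**Figure D2:**
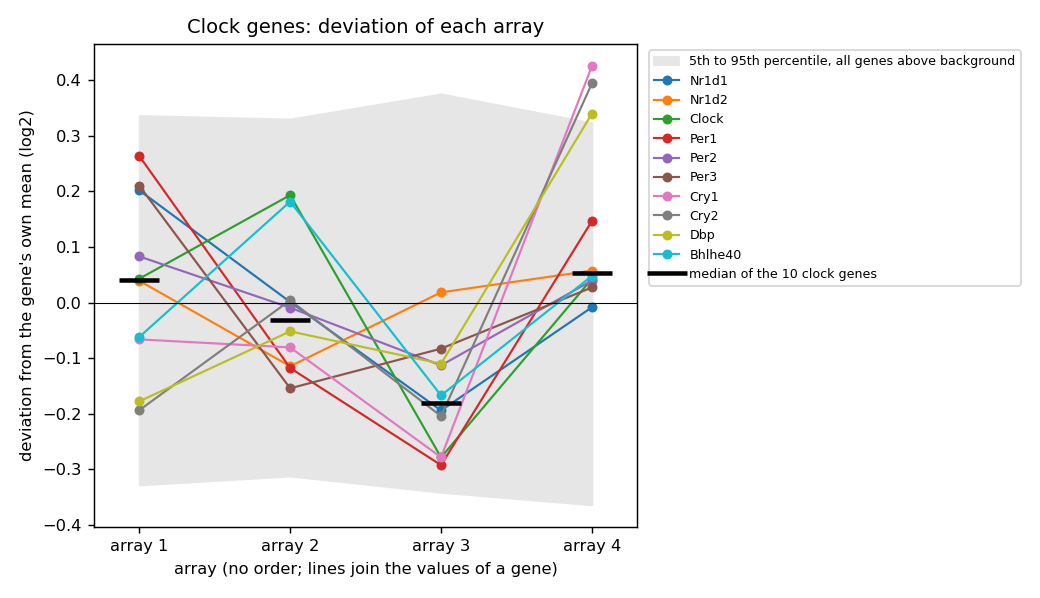
Deviation of each array from the gene's own mean (y axis, log2) for the 10 clock genes on arrays 1 to 4 (x axis), with the median of the 10 as a black bar and the 5th to 95th percentile of all 9203 genes above background in grey. On array 3 all lines but that of Nr1d2 are below 0 and the median is -0.18, and Cry1, Cry2 and Dbp leave the grey band on array 4.

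The size of these deviations was within that of other genes, except on array 4. There Cry1, Cry2 and Dbp deviated by 0.43, 0.39 and 0.34, above the 95th percentile of 0.32 for genes above background on that array. On arrays 1, 2 and 3 the deviations of all 10 lay between the 5th and 95th percentiles. The lowest on array 3 were Per1 at -0.29, Clock at -0.28 and Cry1 at -0.28.

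Marker genes of other cells moved between the same arrays. The mean of 11 B cell markers was 8.66, 7.77, 8.85 and 7.68 on arrays 1 to 4, with 10 of the 11 above background, so it was highest on array 3 and lowest on array 4, where the clock genes were low and high. The mean of 6 plasma cell markers ran from 6.46 on array 4 to 7.93 on array 3, with 3 of the 6 called. For 11 T cell markers the mean ran from 7.48 on array 4, close to 7.49 on array 2, to 7.78 on array 3, with 9 called. The mean of 12 dendritic cell and macrophage markers was 6.10, 6.15, 6.21 and 5.81, with 4 called, so its highest was on array 3 and its lowest on array 4. Gene by gene these lists differed. Array 3 held the highest value of 9 of the 11 B cell, 3 of the 6 plasma cell and 6 of the 11 T cell markers. It did so for 3 of the 12 dendritic cell and macrophage markers, while array 2 did for 6. Array 4 held the lowest value of 6 B cell, 3 plasma cell, 2 T cell and 5 dendritic cell and macrophage markers, and the highest of 3 T cell markers. The mean of 10 NK and ILC1 markers was 6.90, 7.24, 6.99 and 6.69, with 6 called, highest on array 2 and lowest on array 4. The means of 7 ILC2 markers ran from 6.49 on array 1 to 6.79 on array 3, with 4 called, and those of 8 stroma and endothelium markers from 6.52 to 6.61, with 5 called. Of the defining markers, Cd79a, Cd79b, Ms4a1 and Pax5 of B cells, Cd3e, Cd3d and Cd3g of T cells and Jchain and Igha of plasma cells were called. Fcrla, Themis, Trat1, Sdc1, Irf4 and Tnfrsf17 were not. The 9 ILC3 markers measured, Il7r, Thy1 and Ccr6 of the gate among them, were all called, and their mean ran only from 11.22 on array 3 to 11.30 on array 4. The mean of 11 immediate-early and heat shock genes, which handling can raise, was 7.97, 7.77, 7.62 and 7.66, with 10 called. The part of these cells and of handling in the levels and the array pattern of the clock genes was not tested. In bulk RNA such as this, fewer cells of a type and less RNA per cell cannot be told apart.

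**Figure D3:**
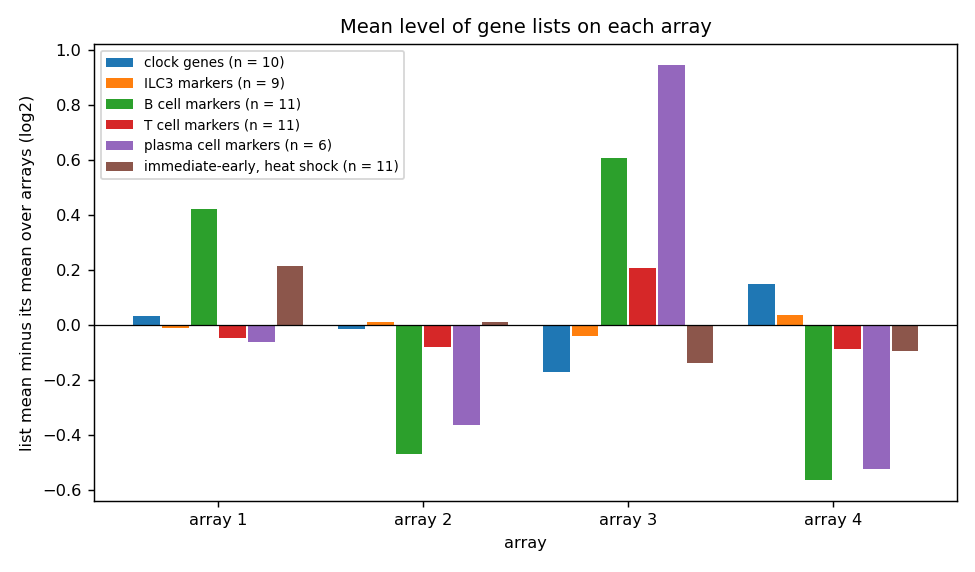
Mean level of 6 gene lists on each array (x axis) minus the list's mean over the arrays (y axis, log2), with the number of genes measured in the legend. The mean of the clock genes is lowest on array 3 and highest on array 4, where Cry1, Cry2 and Dbp deviate most. Their median deviation is close on arrays 1 and 4, at 0.04 and 0.05. The means of the B cell and plasma cell markers are highest on array 3 and lowest on array 4, and that of ILC3 markers stays near 0.

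Differences between 2 genes on the same array show where they changed unequally. Dbp minus Arntl was -0.10, -0.01, 0.23 and 0.67 on arrays 1 to 4, a 1.71-fold span that was lowest on array 1 and highest on array 4. Dbp minus Nfil3, whose product E4BP4 competes with DBP at the D-box, was 0.72, 0.04, 0.54 and 1.06, a 2.03-fold span with array 2 lowest and array 4 highest. Nr1d1 minus Arntl moved less, between 2.73 on array 2 and 3.02 on array 4, a span of 1.22-fold. Nr1d1 minus Dbp, both targets of CLOCK and BMAL1, was 3.07 on array 1 and 2.34 on array 4, a span of 1.66-fold. The pairs were picked from known roles with the values in view.

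The spread of the clock genes between arrays was that of a typical gene above background. The median SD of the 10 was 0.18 log2 units, and that of the 9203 genes above background was 0.17, with 5th and 95th percentiles of 0.04 and 0.48. Of the 10, 5 had an SD below the median of all these genes and 5 above it. Nr1d2 and Per2, with SDs of 0.08 each, lay at the 16.6th and 18.7th percentiles, and Cry1, at 0.30, lay at the 82.1st.

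**Figure D4:**
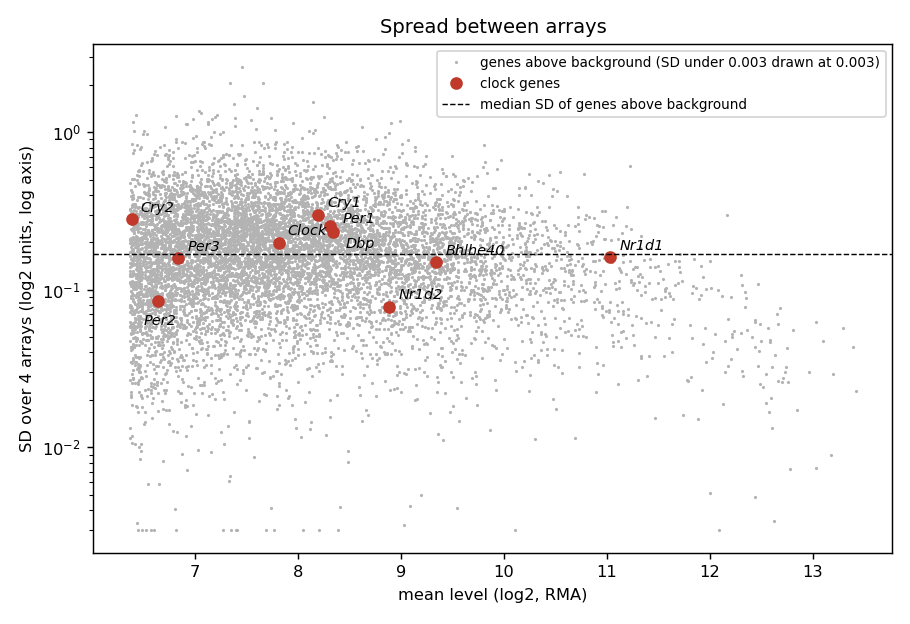
SD over the 4 arrays (y axis, log2 units on a log axis) against mean level (x axis, log2 RMA) for all 9203 genes above background in grey and the 10 clock genes in red. The clock genes scatter around the dashed median SD of 0.17, from Nr1d2 at 0.08 to Cry1 at 0.30.

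Genes with an array profile like that of a clock gene were sought for Nr1d1 and Dbp, by the root mean square difference of the 4 values after each gene's own mean was subtracted. Nearest to Nr1d1 were Frat2, Ercc6l2 and Cic, with differences of 0.010, 0.011 and 0.017 log2 units, and nearest to Dbp were Pacc1, Chst2 and Plekha1, with 0.023, 0.024 and 0.026. Over only 4 arrays close profiles are common: 102 of the 9202 other genes above background lay within 0.05 of Nr1d1 and 27 within 0.05 of Dbp. None of these 6 genes is a clock gene.

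The wider pathway was read from 35 further genes listed by role, of which 30 were measured and 21 were above background, beside the 46.2% of all named genes. Their median level was 6.95, against 6.16 for all named genes. Higher on every array than each gene of other organs were 10 of the 30, beside 24.1% of all named genes. Limma's test called 24 of the 30, beside 54% of all named genes. Of the other nuclear receptors, Rora, which activates Arntl against REV-ERB, was at 9.73, 9.99, 9.84 and 9.96, a mean of 9.88 ± 0.12, and was called. Its arrays lay within 1.196-fold. Rorb was at 4.28 ± 0.03 and not called.

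Among the other repressors and the PAR-bZip factors, relatives of DBP, 4 of 7 were called, beside 46.2% of all named genes. Nfil3 was at 7.45, 8.25, 7.69 and 7.63, a mean of 7.75 ± 0.35 with array 2 the highest. Hlf was at 6.96 ± 0.33 and Tef, at 6.60, 6.38, 6.35 and 6.64, had a mean of 6.49 ± 0.15. Tef was not called with olfactory receptors alone as background, at an adjusted p of 0.0527. Over the other settings of that test its adjusted p lay between 0.0422 and 0.0484, save 0.0232 under the filter on dim genes, which lowers it by itself. Tipin, the partner of TIMELESS at replication forks, was at 6.65 ± 0.47. Bhlhe41, which encodes the paralogue of BHLHE40, was at 4.20 ± 0.24, Ciart, a repressor of CLOCK and BMAL1, at 4.90 ± 0.23 and Timeless at 5.64 ± 0.19, and these 3 were not called.

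Kinases, ligases and partners of the PER, CRY and REV-ERB proteins were called in 9 of 11 cases, beside 46.2% of all named genes. The casein kinase genes Csnk1d, Csnk1e and Csnk2a1 were at 9.01 ± 0.21, 7.22 ± 0.23 and 9.42 ± 0.13. Gsk3a and Gsk3b, which encode glycogen synthase kinases, were at 9.66 ± 0.11 and 8.83 ± 0.15, and Btrc and Fbxw11, whose products mark PER for degradation, at 7.56 ± 0.14 and 7.38 ± 0.26. Hdac3, the deacetylase recruited by REV-ERB, was at 6.81 ± 0.31 and Nono, a PER partner, at 9.47 ± 0.10. Fbxl21, at 5.25 ± 0.31, and Usp2, at 5.95 ± 0.01, were not called.

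Of 8 genes known to follow the clock in many tissues, 6 were called, beside 46.2% of all named genes. Tsc22d3, a glucocorticoid target, was at 8.49 ± 0.17, Pnrc1 at 8.23 ± 0.04, Ppard at 7.14 ± 0.32, Klf10 at 6.93 ± 0.20, Klf9 at 6.75 ± 0.66 and Nampt, the enzyme that limits NAD salvage, at 6.56 ± 0.23. Klf9 differed most between arrays, from 6.23 on array 4 to 7.72 on array 1, a 2.81-fold span that rests on array 1, since the other arrays spanned 1.26-fold. Wee1, at 6.28 ± 0.12, and Noct, at 6.06 ± 0.06, were not called, although limma's test called both and Usp2.

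**Figure D5:**
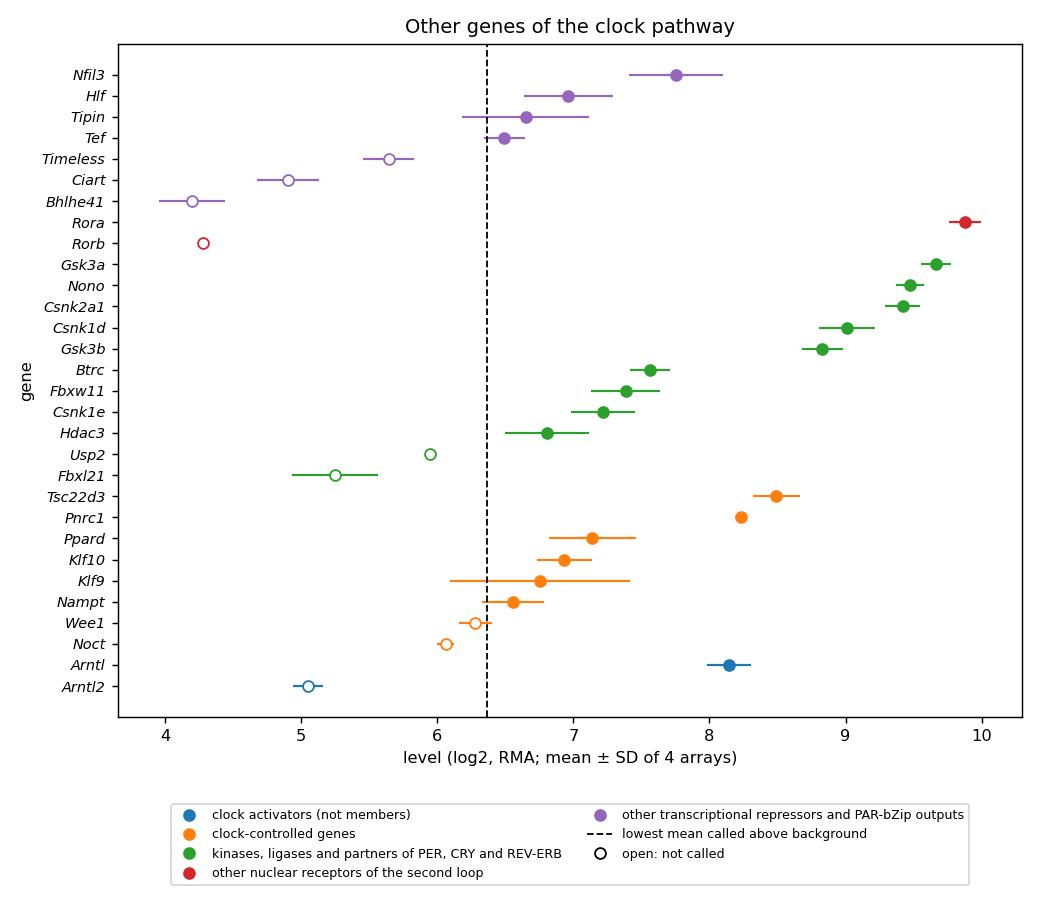
Mean level ± SD over 4 arrays (x axis, log2 RMA) of the 30 further pathway genes measured (y axis), coloured by role, with filled points for the 21 called above background and open points for the others. The dashed line at 6.37 is the lowest mean of any called gene, with Rora at 9.88 to its right and Rorb at 4.28 to its left.

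Some clock genes overlap another gene in the RefSeq annotation, and the sources used here do not say which strand or exons each probe set reads. Thra, which overlaps Nr1d1, was at 7.56, 7.40, 7.56 and 7.85, a mean of 7.59 ± 0.19. It was highest on array 4, whereas Nr1d1 was highest on array 1, and the difference between them moved by 1.41-fold over the arrays. Sphk2, which overlaps Dbp, was at 7.68 ± 0.15 and highest on array 2, and Uts2, which overlaps Per3, was at 5.37 ± 0.18 and not called. Gm7467, a long noncoding RNA gene that overlaps Clock, was at 6.82 ± 0.10. Whether any of these overlaps adds to a clock gene's value was not tested.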

How the data were processed

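Total RNA of 4 sorted samples was hybridised to 1-colour arrays. The authors deposited 1 log2 level for each probe set and array, from RMA per the submitters' processing notes. No version, software or genome build is named there. Of 35556 probe sets, 21789 were named by 1 symbol in GEO's platform annotation, 1621 by several (left out) and 12146 were not listed. Symbols were updated through Entrez identifiers in the RefSeq table of GRCm38.p6 (21698 matched). For the 999 genes with several probe sets the one with the highest mean was used, and each clock gene had 1.

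The detection p was 1 plus the background genes at or above a gene's mean, divided by 1 plus all 1241 background genes. It is one-sided, empirical and no lower than 0.000805. Of the background genes 27 were called, as were 4 of the 13 genes of other organs. Calculations used Python 3.11.15 and limma 3.58.1. The code was also run on simulated data with known raised genes, as a check of the code alone. No scanner files or slide identities were used. Of the called genes, 10.9% had exactly equal deposited values, with no tolerance, on 2 or more arrays, Clock among them, which can make an SD too small. The clock genes, the lists and the tests were chosen with earlier results of these data known. Every clock gene and every pathway gene measured is named, with the 3 nearest profiles to Nr1d1 and Dbp. Other genes named were chosen after their values were seen. Proteins of the paralogues were not compared here. Alternatives were arrays left out in turn, other background genes and rules, other probe set choices, recentring, quantile normalization and a filter on dim genes.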

Additional observations from a re-analysis of the deposited data

Results flagged for a closer look

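In 3 of the 40 clock and pathway genes 1 array stood apart from the other 3 by more than Dixon's 95% limit, and chance marks about 1 gene in 20. Tipin was at 5.95 on array 4, against 6.85 to 6.93 on the others. Btrc was at 7.35 on array 3, against 7.62 to 7.66. Nono was at 9.63 on array 1, against 9.41 to 9.43. None of the 10 clock genes themselves was among them.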

How the results depend on the processing

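Between 9 and 10 of the 10 clock genes were above background in all 12 alternatives, with Cry2 the gene that was lost, and 9 to 10 when each array was left out in turn. Some of the 12 say little about the clock genes. Each clock gene has 1 probe set, so the other probe set choices could move its call only through the adjustment over all genes. Recentring the arrays leaves the mean of every gene over the 4 arrays unchanged, so it could not move a call. Of the 30 further pathway genes, 20 to 24 were called (21 without any 1 array), against 8600 to 10849 of all named genes. The median SD of the called clock genes ran from 0.12 to 0.20 over its 8 alternatives, both ends reached by leaving out an array. The low end, without array 3, was taken over 9 genes, as Cry2 was not called there. The other probe set choices could not move this SD, which stayed at 0.18. Further readings added after the data were seen, centring each array on its median and quantile normalization, put 9 and 10 clock genes below their own mean on array 3, and 9 and 10 above it on array 4. Signal over background limits Per2, Per3 and Cry2 most. No paired analysis was possible because there is only 1 group.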
